A study of Mus musculus with 4 samples.

Results

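RNA levels in interscapular brown adipose tissue (iBAT) were compared between BKO mice, which lack *Mettl3* in brown adipocytes, and *Mettl3* flox/flox mice, using the input libraries of an m6A immunoprecipitation experiment. The input is the fragmented poly(A)+ RNA that was set aside before the m6A antibody was added, so its reads count RNA whether methylated or not. Input reads were summed for each gene over the distinct regions of the deposited peak table, and 4911 of the 6192 gene symbols in the table had at least 40 reads over both libraries and were kept. Of these, 3342 were measured by 1 region and 1569 by 2 or more, and 1106 had a region that also lies over another gene. The remaining 1281 genes fell below the minimum. The median log2 ratio of the 338 genes with 30 to 39 reads was 1.09, and that of the 249 genes with 40 to 49 reads was 1.03.

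The series holds 4 libraries, an input and an m6A IP library of each genotype, and 2 of them, the BKO input and the flox/flox input, are used here. BKO mice carry floxed *Mettl3* alleles and Ucp1-iCre, a Cre driven from the *Ucp1* locus, so the deletion is directed to cells that express *Ucp1* and not to the other cells of the tissue. The flox/flox controls carry the same floxed alleles without Cre. All mice were C57BL/6 and 8 weeks old on normal chow, and each library was made from RNA pooled from 5 mice. With 1 library for each genotype there is no replicate check and no test of a difference between genotypes. Intervals given in square brackets are 95% counting intervals, with 2 reads taken as 1 fragment, and cover counting error only.

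The BKO input held 13394053 reads and the flox/flox input 8826904. Because the table lists only regions with a called m6A peak and an IP enrichment above 1 in both genotypes, RNA was seen only where the IP had selected it: 11.3% of BKO input reads (Wilson 95% interval 11.3% to 11.4%) and 8.78% of flox/flox input reads (8.76% to 8.80%) fell in the 9243 listed regions. The median gene had 128 reads in the BKO input and 48 in the flox/flox input. *Mettl3* itself had no listed region, so the deletion could not be checked in these libraries. RNA levels below are reads scaled to the library total (RPM), with 1 read added to each gene's sum, and every ratio is BKO over flox/flox. In tissue RNA, fewer cells of a type and less RNA per cell cannot be told apart.

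Brown adipose tissue burns fatty acids and glucose to make heat. Its adipocytes hold many lipid droplets and densely packed mitochondria, and UCP1 in the inner mitochondrial membrane lets protons return without making ATP. The depot also contains blood vessels, nerves, fibroblasts and macrophages, and in mice it lies against the skeletal muscles of the back. METTL3 is the catalytic subunit of the complex that writes m6A on mRNA, a mark that bears on splicing, decay and translation.

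Markers of brown adipocytes were read in both libraries. *Adipoq*, *Fabp4*, *Ucp1*, *Cox8b* and *Kcnk3* were abundant, *Plin1* had 208 reads in BKO and 22 in flox/flox, and *Cidea* had 9 and 6 and fell below the minimum. The 8 brown adipocyte markers with a listed region summed to 3855 RPM in the BKO input and 1936 RPM in the flox/flox input, most of it from *Fabp4* and *Adipoq*. Those genes are markers of adipocytes in general, so the sum is not a level of brown adipocyte RNA alone. *Ucp1*, *Cox8b* and *Kcnk3*, the kept markers that are also on the thermogenic list below, were near equal, at log2 ratios of -0.08, 0.14 and -0.26. The skeletal muscle markers summed to 576 RPM in the BKO input and 10.5 RPM in the flox/flox input. The sums were 272 and 129 RPM for macrophage markers, 275 and 85.9 RPM for fibroblast markers, 160 and 248 RPM for endothelial markers, 15.1 and 10.2 RPM for Schwann cell markers and 16.6 and 7.48 RPM for erythroid markers, BKO first in each pair. The lymphocyte markers *Cd3e*, *Cd79a* and *Ptprc* had no region. *Elovl3*, *Acta1*, *Ckm*, *Adgre1*, *Cd68*, *Dcn*, *Col3a1*, *Mbp* and *Hba-a1* were also without one, so these defining markers could not be read.

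Most genes had a higher scaled input level in BKO. The log2 ratio was above 0 for 3765 genes and below 0 for 1146, with a median of 0.75 (95% order-statistic interval 0.71 to 0.79), quartiles at 0.06 and 1.55, and the 5th and 95th percentiles at -0.89 and 2.96. Past 2-fold were 2017 genes higher in BKO (41.1% of the 4911) and 184 lower (3.75%), so that 91.6% of the genes past 2-fold were on the higher side. Dividing by the library total sets this split. When ratios were centred on the median gene, 982 genes (20%) were past 2-fold higher and 781 (15.9%) past 2-fold lower, and the higher share was 55.7%. TMM scaling, which shifts all ratios by the same 0.75, gave the same counts. Scaled to the reads within the listed regions, a shift of 0.37, the counts were 1470 and 401 and the higher share was 78.6%. A reading of 0.75 is therefore an ordinary gene in these libraries, and each list below is set against it.

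Depth also bears on the count. Among the 3843 genes with at least 20 reads in each library, 1169 (30.4%) were past 2-fold higher and 161 (4.19%) past 2-fold lower, with a median of 0.53. The counting interval excluded equal levels for 2591 genes on the higher side and 452 on the lower side, and lay wholly past 2-fold for 930 higher and 36 lower. Of the 45 genes with 0 reads in one library, all were at 0 in the flox/flox input, the shallower of the pair. For these genes, ratios are given as a lower bound against a floor of 3 fragments (6 reads, 0.680 RPM) in the flox/flox library.

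**Figure D1:**
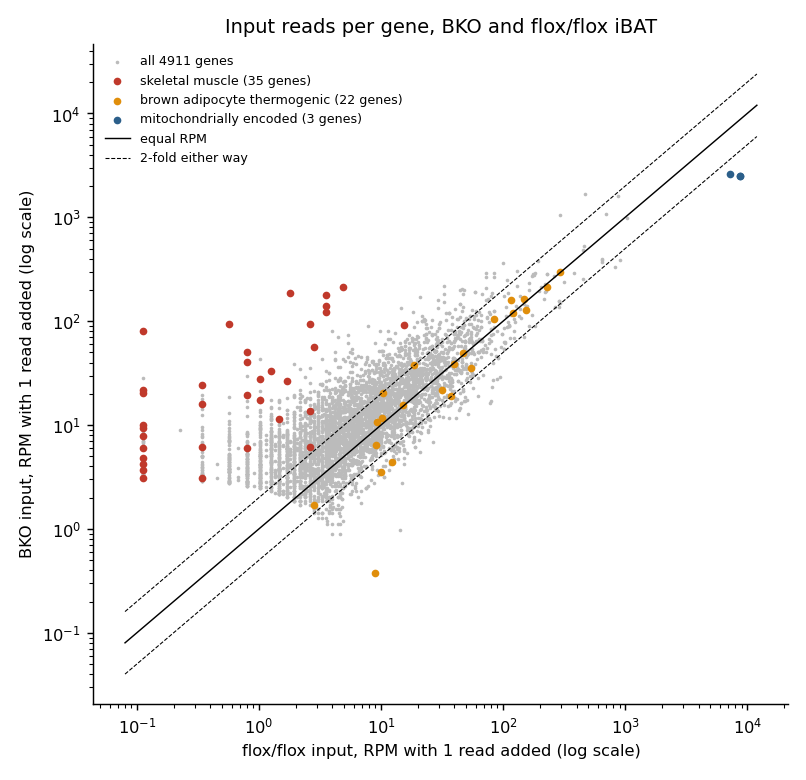
Input level of each of the 4911 genes in BKO (vertical axis) and flox/flox iBAT (horizontal axis), in RPM with 1 read added, both on log scales. The skeletal muscle list lies far above the 2-fold line, most brown adipocyte thermogenic genes lie near equality, with *Pank1* far below, and the 3 mitochondrially encoded genes, drawn at 2 positions because *mt-Nd5* and *mt-Nd6* share a region, lie below the lower 2-fold line at the abundant end.

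The largest difference between the libraries was in skeletal muscle genes. Of 64 genes on the skeletal muscle list, 37 had a listed region and 35 were kept, and all 35 were past 2-fold higher in BKO, against 41.1% of all genes. Their median log2 ratio was 5.21, or 4.31 with the 11 genes at 0 in flox/flox set to their bound, and their summed level was 1649 RPM in BKO and 52.2 RPM in flox/flox, a ratio of 31.6. *Dmd*, with 23 reads in BKO and 2 in flox/flox, and *Tnnc2*, with 26 and 0, were the members below the read minimum. The list supplied 18 of the 30 highest ratios among genes with at least 200 reads. That minimum is on both libraries together, and *Myh7*, *Lmod3* and *Myl2*, with 0 flox/flox reads, met it through BKO alone. Their rank is therefore not separate from the filter.

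The promoters of 4 of these genes are shown because this group stood farthest from the others in the comparison, and the 4 were picked to show the motifs, after their letters were seen. Of a further pair read, *Tpm1* held none of the motifs and *Tpm2* only an E-box at -227. Each is the 250 bases before the transcription start in RefSeq GRCm38.p6, 5′ to 3′ on the gene's strand, with capitals marking a TATA box (TATAAA), an E-box (CAGCTG) or a MEF2 site found on either strand. *Myh4* encodes the fast IIb myosin heavy chain, *Tnnt1* slow troponin T, *Mylpf* the fast regulatory light chain and *Des* the intermediate filament desmin. The windows are chr11:67237562-67237811 (+), chr7:4515976-4516225 (-), chr7:127211358-127211607 (+) and chr1:75360042-75360291 (+).
Myh4: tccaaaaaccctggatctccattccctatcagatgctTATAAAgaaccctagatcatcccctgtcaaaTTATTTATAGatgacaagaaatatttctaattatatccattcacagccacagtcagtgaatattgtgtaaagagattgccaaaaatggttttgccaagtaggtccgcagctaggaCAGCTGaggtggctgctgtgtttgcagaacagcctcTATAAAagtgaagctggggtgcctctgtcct
Tnnt1: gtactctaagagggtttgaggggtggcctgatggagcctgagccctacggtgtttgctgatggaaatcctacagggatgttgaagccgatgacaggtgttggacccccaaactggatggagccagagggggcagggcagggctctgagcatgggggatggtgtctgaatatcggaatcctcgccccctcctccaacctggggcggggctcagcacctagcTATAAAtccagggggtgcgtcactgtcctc
Mylpf: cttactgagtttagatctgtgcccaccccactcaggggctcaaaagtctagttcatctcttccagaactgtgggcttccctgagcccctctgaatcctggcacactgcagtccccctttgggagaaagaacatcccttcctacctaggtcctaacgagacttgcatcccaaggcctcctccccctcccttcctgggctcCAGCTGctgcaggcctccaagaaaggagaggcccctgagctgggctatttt
Des: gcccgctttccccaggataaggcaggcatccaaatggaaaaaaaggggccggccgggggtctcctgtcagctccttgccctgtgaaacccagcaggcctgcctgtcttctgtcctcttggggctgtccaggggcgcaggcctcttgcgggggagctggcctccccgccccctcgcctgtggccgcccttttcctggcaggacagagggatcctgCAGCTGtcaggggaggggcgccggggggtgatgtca
In *Myh4* a TATA box began at -31, an E-box at -67 and a MEF2 site at -182, the last overlapping a further TATA match at -179 on the other strand, and a TATA match also lay at -213. *Tnnt1* had a TATA box at -30, *Mylpf* an E-box at -51 and *Des* an E-box at -36. Over 300-base windows that begin 250 bases before the start, the E-box letters were in 12 of 27 matched promoters of the muscle list (44.4%), against 17.6% of the 3759 kept genes with a promoter and 18.3% of all 27025 promoters. TATAAA was in 8 of the 27 (29.6%), 8.81% and 15.7%, and the MEF2 site in 7 (25.9%), 2.34% and 3.70%. The ETS letters CCGGAAGT, common in promoters of broadly expressed genes, were in 0 of the 27, 10.3% and 4.31%. GAAANNGAA, the letters of an interferon response element, was in 5 of the 27 (18.5%), 8.59% and 9.76%. On the list of homeobox, forkhead, SOX and TBX genes, the E-box was in 7 of 24 promoters (29.2%). There TATAAA and the MEF2 site were in 3 each (12.5%). Among all genes past 2-fold higher and lower, the E-box was in 17.05% and 15.6%. TATAAA was in 9.6% and 12.6% of these, and the MEF2 site in 2.33% and 3.70%. Letters in a window are a description and not a sign that a factor was bound.

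The thick and thin filament genes of fast fibres had the most reads. *Myh4* had 2869 reads in the BKO input and 42 in the flox/flox input, or 214 and 4.87 RPM, in 1 internal exon region (GRCm38, chr11:67258806-67259479), a log2 ratio of 5.46 [4.88 to 6.19]. *Tnnt3*, fast troponin T, had 2505 and 15 reads, 6.69 [5.71 to 7.90]. *Tpm1*, an alpha tropomyosin that is not restricted to skeletal muscle, had 2392 and 30 reads, 5.67 [4.99 to 6.56]. Even the lower ends of the counting intervals were beyond 4 on the log2 scale. *Mylpf* had 1250 and 22 reads, 5.16 [4.38 to 6.24], and *Pvalb*, the calcium buffer of fast fibres, had 754 and 24 reads, 4.31 [3.55 to 5.34].

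Slow-fibre and cardiac-type genes were as far apart. *Myh7*, the slow myosin heavy chain, had 1065 reads over 6 regions in BKO and 0 in flox/flox, at least 117-fold higher. *Tnnt1* had 1261 reads in BKO and 4 in flox/flox over 6 regions, 7.38 [5.84 to 10.75], and none of its regions had more than 4 flox/flox reads. *Myl2*, the slow regulatory light chain, had 274 and 0 reads, at least 30.1-fold higher. Genes of both fibre types thus had far more reads in the BKO library. *Tnnc1*, slow troponin C, had 542 and 6 reads, 5.68 [4.33 to 8.18], and *Mb*, myoglobin, had 326 and 2 reads, 6.17 [4.25 to 12.06].

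Genes of the Z disc, the calcium store and the muscle programme followed the same direction. *Tcap*, the titin cap, had 1875 reads in BKO and 30 in flox/flox, 5.32 [4.64 to 6.21]. *Neb*, the giant thin-filament ruler nebulin, had 132 and 0 reads, at least 14.5-fold higher. *Sln*, sarcolipin, which binds the calcium pump of the sarcoplasmic reticulum, had 105 and 0 reads, at least 11.5-fold higher. *Myf6*, a muscle-determining transcription factor, had 80 and 0 reads, at least 8.79-fold higher. The list also held smaller ratios: *Des*, which smooth muscle also expresses, had 1218 and 136 reads, 2.55 [2.20 to 2.94], and *Mef2c*, a transcription factor that endothelial and immune cells also express, had 82 and 22 reads, 1.25 [0.31 to 2.41].

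Of the 35 genes, all had at least 40 reads in the BKO library alone and 2 had at least 40 in the flox/flox library alone, so most of the list passed the minimum through BKO. The 9 members with at least 20 reads in each library were all past 2-fold higher, with a median of 5.14. The 35 genes lie in 64 regions, of which 60 carried a peak called in BKO only and 4 a peak called in both genotypes. Of 8 kept genes on the list of smooth muscle and pericytes, 4 were above 0 and 4 below, with a median of -0.05 and *Des* alone past 2-fold higher. *Myh11*, the smooth muscle myosin, was at -0.29, *Tagln* at -0.14, *Myl9* at -0.15 and *Lmod1*, a thin-filament protein, at 0.86 on the log2 scale.

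**Figure D2:**
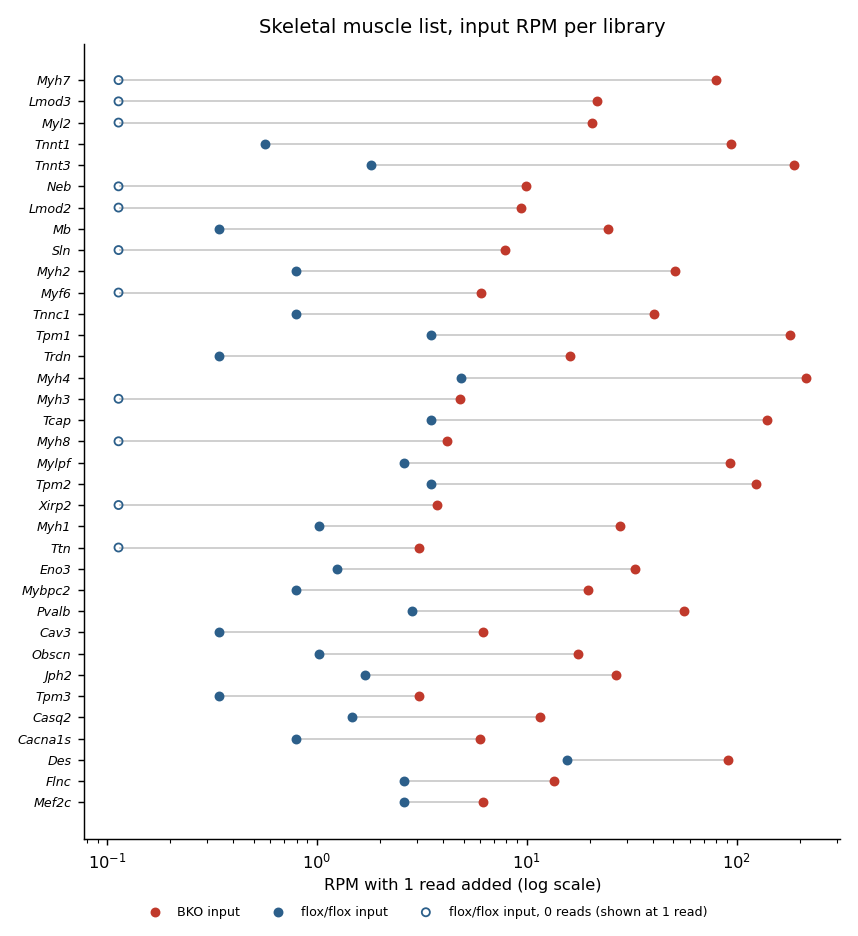
Input level of the 35 skeletal muscle genes in each library, in RPM with 1 read added on a log scale, with a grey line joining the BKO and flox/flox values of a gene. Open points are genes with 0 flox/flox reads, drawn at 1 read, and every BKO point lies to the right of its flox/flox point.

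Adipocyte, mitochondrial and lysosomal genes were among those with the most input reads in the listed regions. The 20 most abundant genes of each library formed a union of 24, of which 16 were among the 20 in both. Of the 24, 11 had a ratio above 0, against 76.7% of all genes. The 24 are not independent. *Abi3* and *Phospho1* share 2 regions, *mt-Nd5* and *mt-Nd6* share 1, and most of the 52 regions of *Gm20388* also lie over other genes. In BKO the order after the mitochondrially encoded genes was *Fabp4*, *Adipoq*, *Apoe*, *Hp* and *Ctsb*, while in flox/flox it was *Ctsb*, *Crat*, *Adipoq*, *Ptms* and *Apoe*. These orders are in RPM over the listed regions, with no correction for region length.

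*Fabp4*, the fatty acid carrier of adipocytes, had 22383 reads in BKO and 4175 in flox/flox (1671 and 473 RPM), a log2 ratio of 1.82 [1.75 to 1.89]. Its 3 regions, all labelled last exon by the authors, did not give 1 value: chr3:10204352-10204691 was at 1.15, chr3:10205120-10205449 at 2.21 and chr3:10208326-10208635 at 3.42. *Fabp4* lies on the reverse strand, so the ratio was larger the farther a region lay from the 3′ end. *Adipoq*, which encodes adiponectin, had 21304 and 7726 reads, 0.86 [0.81 to 0.92], close to the median gene. *Hp*, the haemoglobin-binding acute-phase protein that adipocytes also secrete, had 14194 and 2601 reads, 1.85 [1.76 to 1.93].

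**Figure D3:**
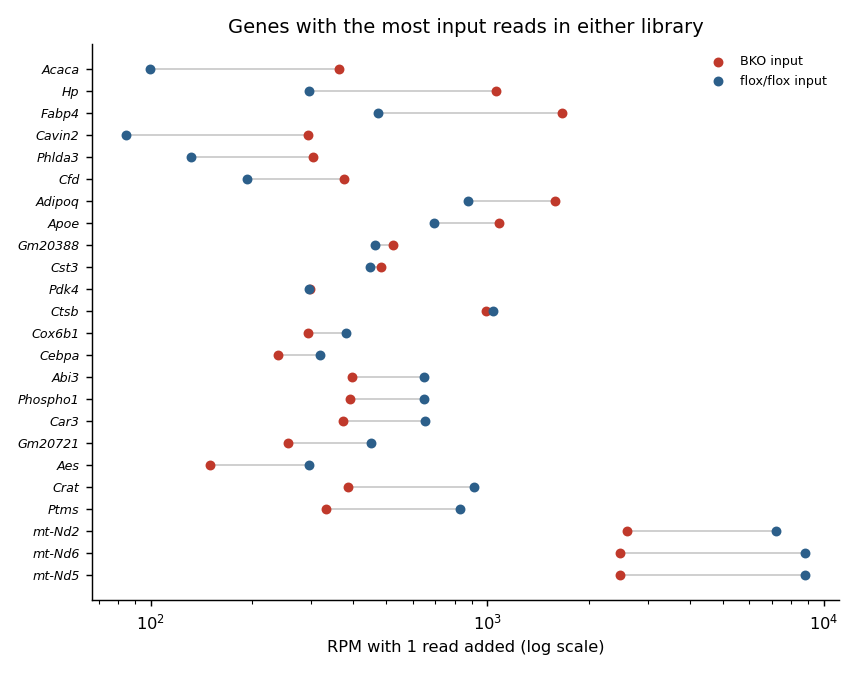
The 24 genes among the 20 most abundant of either library, in RPM with 1 read added on a log scale, with BKO and flox/flox points joined by a grey line. Some adipocyte genes, *Fabp4*, *Hp* and *Acaca* among them, lie to the right in BKO. Others, such as *Car3* and *Cebpa*, lie to the left, as do the mitochondrially encoded genes, *Crat* and *Ptms*.

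Adipocyte genes lay on both sides of the median gene. On the list of adipocyte identity and lipid storage, 33 genes were kept, with a median of 0.43, below that of all genes. Of the 33, 10 were past 2-fold higher and 4 past 2-fold lower, against 41.1% and 3.75% of all genes. *Lep*, which encodes leptin, had 184 reads in BKO and 8 in flox/flox, 3.76 [2.52 to 5.83]. *Plin1*, the coat protein of large lipid droplets, had 208 and 22 reads, 2.58 [1.74 to 3.69], and *Retn*, resistin, had 911 and 204, 1.55 [1.25 to 1.88]. *Plin2* and *Cidec*, which are also lipid droplet proteins, were at -0.19 and -0.01, so the coat proteins did not share 1 direction.

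The transcription factors of adipocytes were spread on both sides. *Cebpd*, an early C/EBP factor, was among the highest of the list at 3.08. *Pparg*, the nuclear receptor required for adipocyte differentiation, had 926 reads in BKO and 468 in flox/flox, 0.38 [0.15 to 0.62]. *Cebpa* had 3189 and 2808 reads, -0.42 [-0.52 to -0.31]. *Cebpb*, an early factor of the adipogenic cascade, had 1823 and 2553 reads (136 and 289 RPM), -1.09 [-1.21 to -0.96], in 1 last exon region (chr2:167689895-167690335) with a peak called in both genotypes. Centred on the median gene, *Pparg*, *Cebpa* and *Cebpb* lay below 0. *Lipe*, hormone-sensitive lipase, was at -0.20 [-0.32 to -0.08] from a region shared with another gene, and *Acsl1*, which activates fatty acids, at -1.23 [-2.24 to -0.34] from 34 and 53 reads.

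Of the few fatty acid synthesis genes with a region, 4 were kept and 3 were past 2-fold higher, against 41.1% of all genes. *Acaca*, acetyl-CoA carboxylase, the committed step of fatty acid synthesis, had 4840 reads in BKO and 876 in flox/flox, 1.86 [1.72 to 2.01]. *Elovl6*, a fatty acid elongase, had 1503 and 474 reads, 1.06 [0.85 to 1.28]. On the list of white adipocyte and beige markers, 17 genes were kept, with a median of 1.80. Past 2-fold higher were 11 and past 2-fold lower 1, against 41.1% and 3.75% of all genes. Among them, *Npr3*, the natriuretic peptide clearance receptor, was at 2.24 and *Sfrp5*, a secreted Wnt inhibitor, at 1.90. The list is not specific to white adipocytes, since *Dpt* on it is a fibroblast matrix gene. With at least 20 reads in each library, 11 of its genes remained and their median was 0.78.

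Several secreted proteins had high ratios, with *Serpina3n* and *Trf* among the 30 highest beside genes of muscle. *Serpina3n*, a protease inhibitor of the acute-phase response, had 522 reads in BKO and 16 in flox/flox, 4.34 [3.43 to 5.65], in a region labelled 5′ UTR (chr12:104408642-104409307). Its neighbour *Serpina3c*, of the same multigene family, had 989 and 46 reads, 3.80 [3.22 to 4.50]. Reads of these near-copies may be split between them by the mapping. *Trf*, transferrin, had 400 and 6 reads, 5.24 [3.89 to 7.75], from a region shared with another gene, and *Retnla*, a resistin-like protein of adipose tissue and alternatively activated macrophages, had 478 and 22 reads, 3.78 [2.97 to 4.86].

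Extracellular matrix genes lay mostly above the median gene. On the fibroblast and preadipocyte list, 14 of 20 kept genes were past 2-fold higher, against 41.1% of all genes, and none past 2-fold lower, with a median of 1.56, and their summed level was 973 RPM in BKO and 344 RPM in flox/flox. *Col1a1* and *Col1a2*, the chains of type I collagen, had 3588 and 740 reads, 1.67 [1.51 to 1.84], and 2726 and 408 reads, 2.14 [1.93 to 2.36], BKO first in each pair. *Sparc*, a collagen-binding matricellular protein, had 670 and 36 reads, 3.58 [2.93 to 4.39]. *Tnc*, tenascin C, a matrix protein of tendon and remodelling tissue, had 578 and 8 reads, 5.41 [4.20 to 7.46], the highest ratio of the integrin, laminin and proteoglycan list. On that list 10 of 19 kept genes were past 2-fold higher, not far from the share of all genes, and none past 2-fold lower, with a median of 1.10. The muscle genes moved with these values, at 1649 RPM in BKO and 52.2 RPM in flox/flox, and their part in the matrix values was not tested. *Ebf1* and *Zfp423*, transcription factors of preadipocytes, were at -0.999 and -0.32.

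Immune genes were mixed. On the macrophage and monocyte list, 9 of 22 kept genes were past 2-fold higher and none past 2-fold lower. These shares were near the 41.1% and 3.75% of all genes, and the median of 0.64 lay below that of all genes. *Lyz2*, lysozyme, had 224 reads in BKO and 8 in flox/flox, 4.04 [2.81 to 6.11], and *Mrc1*, the mannose receptor, had 95 and 4 reads, 3.66 [2.05 to 7.07]. *Csf1r*, the receptor that macrophages depend on, had 359 and 190 reads, 0.31 [-0.05 to 0.69], an interval that includes equal levels. The 3 genes of complement C1q are encoded side by side and their products assemble into 1 protein, yet *C1qa* was at 2.16 [1.86 to 2.48], *C1qb* at 0.59 and *C1qc* at 0.58. The group therefore held members far above and members below the median gene. On the inflammation and cytokine list 8 of 15 kept genes were past 2-fold higher, against 41.1% of all genes, with a median of 1.12. *Socs3*, a feedback inhibitor of cytokine receptors, was the highest of them at 2.14 [1.29 to 3.27].

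Lysosomal genes had the same mixture. *Ctsb*, cathepsin B, the most abundant nuclear-encoded gene of the flox/flox input, had 13266 reads in BKO and 9179 in flox/flox (991 and 1040 RPM), -0.07 [-0.12 to -0.02]. *Ctsk*, cathepsin K, a collagen-degrading protease, had 121 and 0 reads, at least 13.3-fold higher in BKO, and *Ctsl* was at 3.10. Of 25 kept genes on the list of lysosome and autophagy, 12 were past 2-fold higher and 1 past 2-fold lower, against 41.1% and 3.75% of all genes. The median of the list was 0.91. Its summed level was 1554 RPM in BKO and 1492 RPM in flox/flox, most of it from *Ctsb*.

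Some chaperones of the endoplasmic reticulum were well above the median gene, though their list as a whole was near it. *Hspa5*, the chaperone BiP, had 2933 reads in BKO and 289 in flox/flox (219 and 32.9 RPM), 2.74 [2.49 to 2.99]. *Xbp1*, the transcription factor whose mRNA is spliced by IRE1 under folding stress, had 829 and 125 reads, 2.12 [1.73 to 2.52]. *Hsp90b1*, the chaperone GRP94, was at 1.87 [1.42 to 2.37] and *Canx*, calnexin, at 2.35, while *Calr*, calreticulin, was at 0.00. Of 24 kept genes on the list of unfolded protein and heat shock, 12 were past 2-fold higher, against 41.1% of all genes, and none past 2-fold lower, with a median of 0.99 that lay within 0.24 of the all-gene median. *Atf4*, the transcription factor of the amino acid and integrated stress response, had 359 and 74 reads, 1.66 [1.16 to 2.23], and *Chac1*, its target in glutathione breakdown, had 144 and 4 reads, 4.26 [2.66 to 7.64]. The list of amino acid and mitochondrial stress response around them had a median of 0.39, with 3 of 16 kept genes past 2-fold higher.

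Proteasome subunits were among the groups above the median gene. Of 20 kept genes, 15 were past 2-fold higher and none past 2-fold lower, against 41.1% and 3.75% of all genes. The median was 1.29. *Psmd12*, a lid subunit, was at 3.38, *Psmc5*, a base ATPase, at 2.26 [1.56 to 3.03] and *Psmd4*, a ubiquitin receptor, at 1.71 [1.30 to 2.17]. *Psmb9*, the interferon-inducible catalytic subunit, was at -0.18 and the only member below 0. RNA-binding and splicing genes also had a median above that of all genes, 1.02 over 87 genes, with 44 past 2-fold higher and 1, *Ddx18*, past 2-fold lower, but among the 59 of them with at least 20 reads in each library it was 0.68, against 0.53 for all genes at that depth.

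The genes of the translation machinery were widely spread. *Rpl4*, a large-subunit ribosomal protein, had 1069 reads in BKO and 86 in flox/flox, 3.02 [2.59 to 3.52], and *Rpl29*, of the same subunit, had 1211 and 1443 reads, -0.85 [-1.01 to -0.70]. Both belong to the same particle and their intervals were more than 3 log2 units apart. Of 18 kept cytosolic ribosomal protein genes, 9 were past 2-fold higher and none past 2-fold lower, against 41.1% and 3.75% of all genes. Their median was 1.16. Centred on the median gene, 7 were past 2-fold higher and 5 past 2-fold lower, against 20% and 15.9% of all genes. The elongation factors showed the same spread, since *Eef1a1* had 2163 and 259 reads, 2.46 [2.19 to 2.73], from a region shared with another gene, and *Eef2* had 3659 and 2326 reads, 0.05 [-0.05 to 0.16]. Ribosomal protein and elongation factor genes have many processed pseudogenes, among which reads could be divided. *Eef1a2*, the elongation factor isoform of muscle and neurons, had 262 and 2 reads, 5.85 [3.93 to 11.75].

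The genes commonly used as internal references did not agree on a single scale. Of 6 kept, *Eef2*, *Gusb* at 0.12 [-0.35 to 0.60] and *B2m* at 0.31 [0.20 to 0.42] were near equal, while *Rpl13a* at 1.51, *Hsp90ab1* at 1.54 [1.36 to 1.72] and *Eef1a1* at 2.46 were past 2-fold higher. Their median was 0.91.

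**Figure D4:**
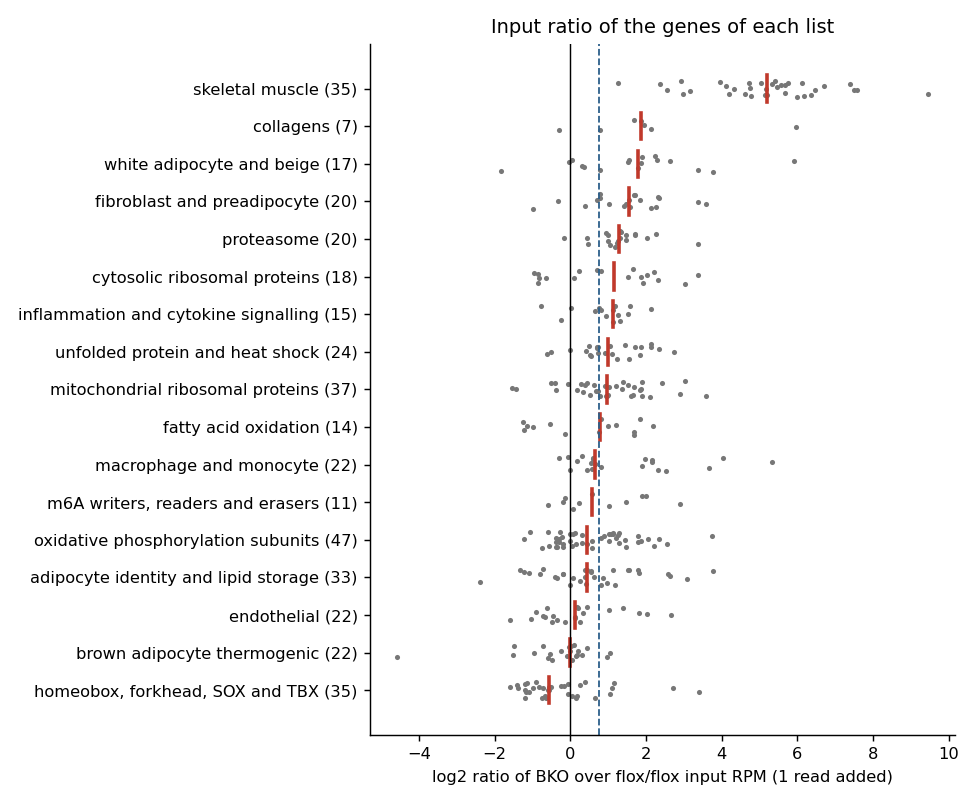
Log2 ratio of BKO over flox/flox input RPM, with 1 read added, for each kept gene of selected lists, with the number of genes in brackets beside each list, its median as a red bar, equal levels as a solid line and the all-gene median as a dashed line. The skeletal muscle list stands apart on the right with a median of 5.21, fibroblast and proteasome genes lie mostly above the dashed line at 0.75, and brown adipocyte thermogenic and developmental transcription factor genes lie mostly below it.

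The thermogenic genes of brown adipocytes were as a group at equal RPM. Of 22 kept genes, 1 was past 2-fold higher and 3 past 2-fold lower, against 41.1% and 3.75% of all genes. Their median was -0.02, and their sums were 1465 RPM in BKO and 1463 RPM in flox/flox. Relative to the median gene, 2 were above and 20 below. *Ucp1* had 2887 reads in BKO and 2017 in flox/flox (216 and 229 RPM), -0.08 [-0.20 to 0.03], in 1 last exon region (chr8:83297793-83298478), the end of the gene next to which the Ucp1-iCre allele carries its insertion. *Cox7a1* and *Cox8b*, brown-fat and muscle isoforms of cytochrome c oxidase subunits, were at 0.00 [-0.16 to 0.16] and 0.14 [-0.004 to 0.28], and *Adrb3*, the receptor through which noradrenaline drives heat production, at 0.09 [-0.17 to 0.34]. None of these 4 genes was separable from equal RPM beyond counting error.

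Some other members of the list had counting intervals that excluded equal RPM. *Dio2*, the deiodinase that makes active thyroid hormone, had 46 reads in BKO and 87 in flox/flox, -1.51 [-2.33 to -0.78]. *Ppargc1b*, a coactivator of mitochondrial genes, had 256 and 331 reads, -0.97 [-1.32 to -0.64]. *Rxra*, the partner of PPAR receptors, had 508 and 162 reads, 1.04 [0.68 to 1.43], and was the member past 2-fold higher. *Tfam*, which packages mitochondrial DNA, was at 0.98 [0.50 to 1.51] and *Ucp3* at 0.44 [0.29 to 0.60]. Against the median gene at 0.75, *Rxra* and *Tfam* lay a little above and *Ucp3* a little below.

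*Prdm16*, which directs precursor cells to the brown fate, had 58 reads in BKO and 108 in flox/flox, -1.49 [-2.20 to -0.82], but its regions differed. A last exon region (chr4:154318508-154319005) had 44 and 32 reads, -0.15, and a further last exon region had 6 and 2. The region labelled intergenic (chr4:154636833-154637379) had 8 and 74 reads, -3.66. With the intergenic region left out, *Prdm16* was at -0.06, so its place past 2-fold lower rests on that region. *Pank1*, which makes the cofactor coenzyme A, was the lowest of the list at -4.58 [-7.98 to -2.94], with 4 reads in BKO and 78 in flox/flox, and its single region lies in intron 1 (chr19:34876590-34876970).

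The mitochondrially encoded transcripts were the most abundant of all and were lower in BKO. *mt-Nd2*, a complex I subunit, had 34835 reads in BKO and 63671 in flox/flox (2601 and 7213 RPM), -1.47 [-1.50 to -1.44], at MT:4538-4948. *mt-Nd5* and *mt-Nd6*, complex I subunits encoded on opposite strands, share 1 region (MT:12952-14068) with 33276 and 77441 reads (2484 and 8773 RPM), -1.82 [-1.85 to -1.79], and cannot be told apart in it. Only these 3 of the mitochondrial genes had a region, in 2 regions, all were past 2-fold lower, and centring moved *mt-Nd5* to -2.57. Both libraries counted them deeply, so counting error is small, but the spread between mice and that between library preparations are both unknown. The share of the input that these genes take also enters the library total by which every other gene was scaled.

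Nuclear-encoded subunits of oxidative phosphorylation lay on both sides. Of 47 kept genes, 19 were past 2-fold higher, a share near the 41.1% of all genes, and 2 past 2-fold lower, with a median of 0.43 that lay below the all-gene 0.75. Centred on the median gene, 8 were past 2-fold higher and 12 past 2-fold lower, against 20% and 15.9% of all genes. *Atp5a1*, the alpha subunit of ATP synthase, had 584 reads in BKO and 28 in flox/flox, 3.73 [3.01 to 4.67]. *Ndufa2*, of complex I, had 2041 and 288 reads, 2.22 [1.97 to 2.49]. *Cox7b*, of complex IV, had 239 and 366 reads, -1.21 [-1.55 to -0.87], and *Sdhd*, a membrane anchor of complex II, had 113 and 156 reads, -1.06 [-1.57 to -0.54], in a region it shares with *Timm8b*. Members of the same complex lay on both sides of equality. In the 13 genes with enough reads in last exon and 3′ UTR regions alone, the list's median was -0.21.

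Other mitochondrial lists differed in their place against the median gene. The tricarboxylic acid cycle and pyruvate list had a median of 0.15 over 15 genes. Past 2-fold higher were 4 and past 2-fold lower 2, against 41.1% and 3.75% of all genes. Mitochondrial ribosomal proteins had a median of 0.97 over 37 genes, with 17 past 2-fold higher and 2 past 2-fold lower, shares near those of all genes. *Mrpl32* was at 3.58 [2.43 to 5.36] and *Mrps11* at -1.43 [-2.05 to -0.85]. The 25 carriers and import factors had a median of 0.80, led by *Tomm5*, a small subunit of the outer membrane import pore, at 4.22 [2.85 to 6.74]. *Timm50*, the receptor of the inner membrane import pore, was at -1.61 [-1.87 to -1.35] with 364 and 732 reads.

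Fatty acid oxidation genes had a median of 0.78 over 14 genes, but -0.13 over the 9 genes kept from last exon and 3′ UTR regions alone. Of the 14, 5 were past 2-fold higher and 3 past 2-fold lower, against 41.1% and 3.75% of all genes. *Crat*, carnitine acetyltransferase, which buffers mitochondrial acetyl-CoA, was the most abundant nuclear-encoded gene past 2-fold lower, with 5161 reads in BKO and 8053 in flox/flox (385 and 912 RPM), -1.24 [-1.32 to -1.17], in 1 3′ UTR region (chr2:30401925-30402680). *Acads*, short-chain acyl-CoA dehydrogenase, was at -0.98 [-1.11 to -0.85], just inside 2-fold. *Etfb*, which takes electrons from the acyl-CoA dehydrogenases, had 1332 and 192 reads, 2.19 [1.88 to 2.52], in regions shared with another gene. Their summed level was 918 RPM in BKO and 1452 RPM in flox/flox, and *Crat* carries much of that sum.

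Developmental transcription factors were the list of nuclear-encoded genes with the lowest median. Of 35 kept homeobox, forkhead, SOX and TBX genes, 24 were below 0, 9 past 2-fold lower and 5 past 2-fold higher, with a median of -0.58 (order-statistic interval -0.83 to -0.05), against 3.75% of all genes past 2-fold lower. Centred on the median gene, 20 of the 35 were past 2-fold lower, against 15.9% of all genes. *Hoxa4* and *Hoxa3*, homeobox genes that set position along the body axis, were at -1.41 [-1.83 to -1.01] and -1.15 [-1.46 to -0.83], both in shared regions, and *Hoxd3* and *Hoxd4* share 1 region at -1.20. *Sox6* was at -0.83. *Tbx15*, a T-box factor of brown fat and muscle, ran the other way with 111 reads in BKO and 6 in flox/flox, a log2 ratio of 3.40.

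Some of these factors belong to endothelial cells, whose 4 markers were lower in sum in BKO mostly through *Cdh5*. *Sox18*, a factor of vascular and lymphatic development, had 196 reads in BKO and 388 in flox/flox, -1.58 [-1.95 to -1.23], and its relative *Sox17* was at -0.90 [-1.34 to -0.44]. *Cdh5*, the cadherin of endothelial junctions, had 1198 and 1618 reads (89.5 and 183 RPM), -1.03 [-1.19 to -0.88]. *Kdr* and *Flt1*, the VEGF receptors, were at -0.14 and 0.13, and *Pecam1*, also a junction protein, ran higher in BKO with 186 and 60 reads, 1.01 [0.42 to 1.68]. Over the endothelial list, 5 of 22 kept genes were past 2-fold higher and 2 past 2-fold lower, against 41.1% and 3.75% of all genes. The median of the list was 0.13. *Fabp4*, which adipocytes also express, is on that list, so its summed level is not that of endothelial genes alone.

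Among genes with at least 200 reads, 31 of 2321 had a counting interval wholly past 2-fold lower and 542 wholly past 2-fold higher. The lowest was *Gypc*, a red cell membrane glycoprotein also made in other cells, with 217 reads in BKO and 683 in flox/flox (16.3 and 77.5 RPM), -2.25 [-2.58 to -1.94]. *Nr4a1*, an orphan nuclear receptor induced by adrenergic stimulation, had 228 and 698 reads, -2.21 [-2.53 to -1.91], in 1 last exon region (chr15:101274067-101274524). *Heyl*, a transcriptional effector of Notch, had 90 and 233 reads, -1.96 [-2.51 to -1.47]. *Phb*, prohibitin, a scaffold of the inner mitochondrial membrane, had 312 and 715 reads, -1.80 [-2.08 to -1.52], and *Mt1*, metallothionein, had 252 and 550, -1.72 [-2.04 to -1.42]. *Ptms*, parathymosin, was the most abundant after *Crat* at 4448 and 7317 reads (332 and 829 RPM), -1.32 [-1.40 to -1.24].

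Genes of the immediate early response did not share the direction of *Nr4a1*. *Fos* had 135 reads in BKO and 16 in flox/flox, 2.40 [1.43 to 3.75], and *Jun* had 425 and 64, 2.11 [1.59 to 2.72]. *Nr4a2*, in the same receptor family as *Nr4a1*, was at -0.42. Over 20 kept genes the median was 0.71, with 5 past 2-fold higher, against 41.1% of all genes. *Nr4a1* alone was past 2-fold lower, against 3.75% of all genes. Of the circadian clock genes, 8 were kept, with a median of 0.06.

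The RNA of the m6A machinery was seen for 11 genes. *Wtap*, the regulatory subunit that brings the writer complex to nuclear speckles, had 140 reads in BKO and 87 in flox/flox, 0.08 [-0.50 to 0.65]. *Virma*, another writer subunit, had 56 and 4 reads, 2.91 [1.22 to 6.32]. *Ythdc1*, the nuclear reader, had 307 and 54 reads, 1.88 [1.31 to 2.56], and *Ythdf2*, the reader that promotes decay, had 355 and 115, 1.02 [0.58 to 1.47]. Also past 2-fold higher were *Hnrnpc* at 1.99 and *Mat2a*, which makes the methyl donor, at 1.47 [1.06 to 1.92]. In all, 5 of the 11 were past 2-fold higher, near the 41.1% of all genes, and none past 2-fold lower. The median of 0.56 lay below the all-gene 0.75, and over the 9 genes kept from last exon and 3′ UTR regions alone it was 0.08, with 2 past 2-fold higher. *Pcif1*, which methylates adenosine at the cap, had the lowest ratio, -0.59 [-1.08 to -0.08].

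The place of a region within its gene moved with the ratio. Among 6470 regions with at least 40 reads, of median 0.84, the median was 1.70 for 760 internal exon regions, 1.41 for 258 in 5′ UTRs and 1.13 for 247 in first exons, against 0.78 for 1775 in last exons and 0.57 for 2280 in 3′ UTRs. Regions of introns were at 0.91 and intergenic ones at 0.52. Within 427 genes that had both kinds, the median was 1.64 in 5′ UTR, first and internal exon regions and 0.77 in last exon and 3′ UTR regions, with a median difference of 0.74 (order-statistic interval 0.64 to 0.89), and the upstream value was the higher in 314 of them (73.5%). The regions of *Fabp4* above have this order. What moves with place was not tested, and it bears on any gene read from 1 region.

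**Figure D5:**
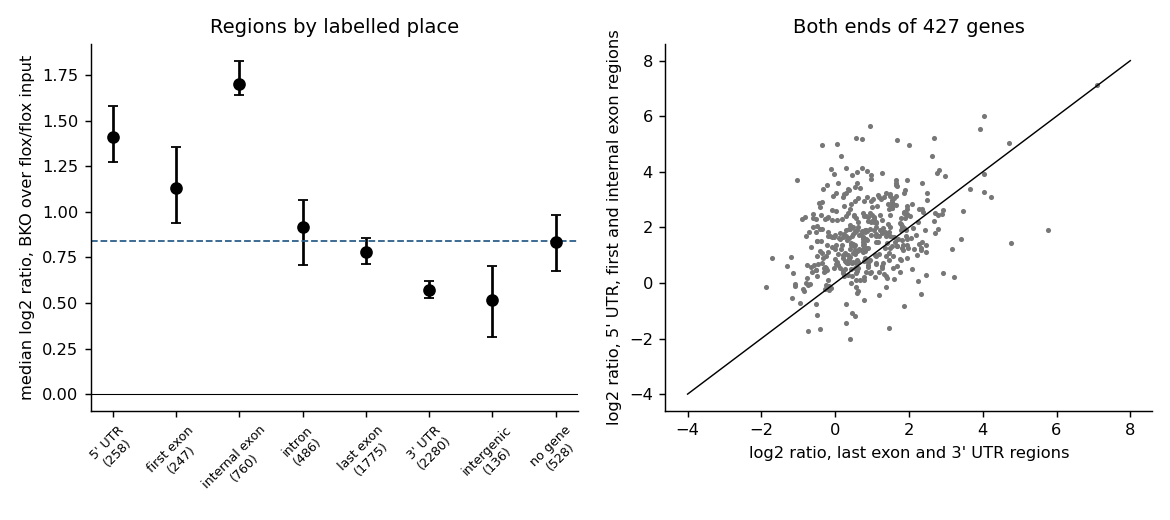
Left, the input ratio (log2, BKO to flox/flox, median) by labelled place of the region, with the number of regions in brackets, order-statistic 95% intervals as bars and the median of all regions, 0.84, as a dashed line. Right, the upstream against the 3′-end ratio of 427 genes with both, in which 73.5% of genes lie above the line of equality.

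The genotype in which a peak was called moved with the ratio too. Regions with a peak called in BKO only had a median of 1.37 over 1773, those called in both genotypes 0.72 over 3227, and those called in flox/flox only 0.58 over 1470. Within last exons and 3′ UTRs the medians were 0.91, 0.61 and 0.58. Regions of the same gene gave a measure of how well a gene's ratio is fixed in these libraries. Over 1066 genes with at least 2 regions of 40 reads or more, the median SD between regions was 0.69 and the median range 1.03 (quartiles 0.51 and 1.78), with all regions on the same side of 0 in 789 (74.0%). In a typical gene the highest and lowest regions thus lay about 1 log2 unit apart, and farther in many genes. The error of a ratio read from 1 region was not estimated. Centred on the median gene, 34 of the 35 muscle genes were past 2-fold higher, all but *Mef2c*. Read from last exon and 3′ UTR regions alone, 11 muscle genes were kept and all 11 were past 2-fold higher, with a median of 3.96. Read the same way, the medians were 1.56 for fibroblast genes, -0.08 for thermogenic genes, -0.58 for developmental transcription factors and 0.63 for all genes.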

How the data were processed

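By the labels and the study's methods, poly(A)+ RNA of iBAT was chemically fragmented and sequenced on an Illumina HiSeq X, and the authors mapped reads to GRCm38 with BWA (0.7.12-r1039) and called peaks with MACS2 (2.1.0). The deposited table gives whole read counts per region and library, the RPM values the authors made from them with 1 read added, and ratios. The deposited fold enrichment, a linear ratio of IP over input RPM, served only to test that listed regions exceed 1, and the authors' log2 comparison of the genotypes was not used. How reads were counted is not given in the sources used here.

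Input counts were summed per symbol over distinct regions, divided by the library total and compared in Python (3.11.15) with pandas (2.3.3) and SciPy (1.17.1), and edgeR (4.0.16) gave TMM factors only. Genes needed 40 reads over both libraries, and a call means past 2-fold, with no test, since each genotype has 1 library. Intervals are exact conditional (Clopper-Pearson), with 2 reads per fragment because 77.2% of BKO and 91.3% of flox/flox counts from 1 to 20 were even. The interval code was run on data simulated under the same counting model, which checks the code and not whether the model holds here. PCR copies are not independent molecules.

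The members and gene lists were chosen with earlier results of these data known. Genes named are list members, the 30 highest and 30 lowest ratios among genes with 200 reads and an interval wholly past 2-fold, and the 20 most abundant of either library. *Timp2* and *Timp4*, caught by the name pattern for import factors, were taken out of that list. Promoters are from RefSeq (GRCm38.p6), matched by symbol for 3759 genes, with the E-box and MEF2 site chosen after the data were seen. Also searched on both strands, with shares past 2-fold higher and past 2-fold lower, were TGACGTCA (3.88% and 2.22%), GCATGCGC (5.23% and 1.48%), GAAANNGAA (8.59% and 7.41%), TCAAGGTCA (1 of 1548 and 3 of 135) and paired AGGTCA half-sites with 1 base between (none). Alternatives covered scaling, the added count, the minimum, the regions used and the threshold. Some genes are not reported here.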

Additional observations from a re-analysis of the deposited data

How the results depend on the processing

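Centring on the median gene or TMM moved the median log2 ratio of all genes from 0.75 to 0.00 and -0.0003, gave 982 genes past 2-fold higher and 781 past 2-fold lower by either, and moved the list medians to 4.46 for skeletal muscle, -0.77 for thermogenic, -0.31 for oxidative phosphorylation, -2.57 for mitochondrially encoded and -1.32 for developmental transcription factor genes. By their construction, these settings subtract a constant. Scaling to reads within regions gave 401 genes lower and medians of 0.38 for all genes, -2.19 for mitochondrially encoded and -0.94 for developmental transcription factor genes. With 5 reads added, the medians were 0.67 for all genes and 4.11 for skeletal muscle.

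With no minimum, 323 genes were lower. With at least 200 reads, 871 were higher and 87 lower, 22 of them muscle genes on the higher side, with medians of 0.67 for all genes and -0.90 for developmental transcription factors. With 20 reads in each library, 1169 genes were higher, 9 of them muscle genes, and the median of all was 0.53. At 1.5-fold 435 genes were lower, and at 4-fold 752 were higher and 10 lower. Requiring the interval wholly past 2-fold left 930 and 36, and 1248 and 64 with each read taken as independent. Regions called in both genotypes gave 1057 higher, 4 of them muscle genes, 117 lower, and medians of 0.66 for all genes and -0.85 for developmental transcription factors.

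The next 2 settings, and leaving out the muscle list, were chosen after the data were seen. Last exon and 3′ UTR regions gave 11 muscle genes higher, with medians of 0.63 for all genes, 3.96 for skeletal muscle and -0.21 for oxidative phosphorylation. Upstream exon and 5′ UTR regions gave 764 higher, 20 of them muscle genes, 24 lower, and medians of 1.4997 and 5.71 for all genes and muscle. Fewer genes are kept under the stricter settings, and the cause of the other shifts was not tested. The oxidative phosphorylation median thus changed sign under centring, TMM and the 3′-end regions. So did other list medians between 0 and 0.75 under centring, and among others that of fatty acid oxidation in the 3′-end regions, at -0.13. In all, 1071 of 1306 values under the alternatives stayed within the limits set for each. Settings that only filter genes leave the ratio of a single kept gene as it was, and a gene with a single region cannot move with the choice of regions. Part of this count was therefore fixed in advance, and it is not a measure of robustness. No paired analysis was possible because each genotype has 1 input library, and no replicate could be left out for the same reason.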

Other observations

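Of the 45 genes with 0 flox/flox reads, 11 are on the skeletal muscle list. Others outside it are also known from striated muscle: *Smpx*, a small muscle protein linked to the costamere, and *Mylk4*, a myosin light chain kinase, each had 112 reads in BKO and 0 in flox/flox, at least 12.3-fold higher, and *Tmod4*, which caps thin filaments, had 93 and 0, at least 10.2-fold. *2010003K11Rik*, with 382 and 0 reads, was at least 42.0-fold higher. These were chosen for description after their values were seen.

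The GO terms written beside the genes in the deposited table were read for 414 terms of 15 to 300 kept genes, a choice also made after seeing the data, with no test. The highest medians were 5.21 for myofibril (18 genes) and 4.42 for muscle contraction (24 genes). With the genes of the muscle list left out, muscle contraction was at 3.05 and myofibril at 0.97. Away from muscle, collagen trimer (18 genes) was at 1.61, tRNA aminoacylation for protein translation (18 genes) at 1.57 and basement membrane (24 genes) at 1.49. The lowest was hydrogen ion transmembrane transport, the proton movers of the respiratory chain and ATP synthase, at -0.25 over 18 genes. Of these, 1 was past 2-fold higher and 2 past 2-fold lower, against 41.1% and 3.75% of all genes. The next lowest terms were cis-Golgi network at 0.02 and mitochondrion degradation at 0.03.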
